A study of Mus musculus with 6 samples.

Results

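Acetylation of histone H3 (H3ac) was examined at 10 genes whose enzymes build and sulfate chondroitin and heparan sulfate chains, namely Xylt1, Xylt2, Csgalnact1, Chsy1, Chst11, Chst12, Chst3, Ext1, Ext2 and Ndst1. Every region of the H3ac table that overlapped the body of one of these genes, extended by 5 kb on both sides (GENCODE M21 gene models, mm10), was taken. This gave 45 of the 24431 regions, with all 10 genes represented among the 14135 protein-coding genes that had a region. The genes were not an unbiased choice, because an intronic region of Xylt1 and another of Chst11 had among the lowest p-values in comparisons with acetate-treated cells. Those regions, called leading regions here, are therefore described without a test, and the question put to the data was whether the other regions of the same genes followed them.

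The libraries came from mouse mesenchymal stem cells (MSCs), multipotent stromal cells that can form bone, cartilage and fat, and were made by CUT&RUN, in which an antibody guides a nuclease to marked chromatin and the released DNA is sequenced. The groups were Young (mice of 3 to 5 months, untreated), Old (mice of 18 to 22 months, untreated) and OldAcetate (mice of 18 to 22 months, 5 mM sodium acetate for 3 days), with 2 libraries each and all cells cultured at 2% oxygen. Strain, sex and genotype are not given in the sources used here, and nothing says whether libraries of a group came from separate mice or cultures, so p-values measure only the spread between these libraries. The comparison of Old with Young asks about age, that of OldAcetate with Old about acetate in old cells, and that of OldAcetate with Young about how far treated old cells stand from young ones. All 10 stromal marker genes looked up (Pdgfra, Pdgfrb, Thy1 and Cd44 among them) carried an H3ac region, whereas 6 of 7 blood cell markers, Ptprc included, had none. Of 3 endothelial markers, Pecam1 and Kdr had a region and Cdh5 had none. The summed level was 628 to 942 RPM for the stromal list, 17.1 to 22.9 RPM for the blood list, all from Spi1, and 23.5 to 40.1 RPM for the endothelial list. These sums run over 10, 1 and 2 genes, so they cannot be compared directly. Single stromal genes ran from Thy1 (22.3 to 38.4 RPM) to Cd44 (146 to 224 RPM). Pecam1 had 18.7 to 33.2 RPM and Kdr 4.77 to 9.18 RPM. The part of blood and endothelial cells in the results was not tested.

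Chondroitin and heparan sulfate are long sugar chains attached to core proteins, together called proteoglycans. Xylosyltransferases place a xylose on a serine of the core protein, and this starts a short linker shared by both chain types. The next sugar decides the branch, after which polymerases extend the chain and sulfotransferases decorate it. Such chains bind growth factors and water, and chondroitin sulfate is a main component of cartilage matrix.

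Both leading regions lay within introns, and the central 300 bases of each are printed here so that their base composition can be compared with that of the gene starts. The sequences are from the reference genome (mm10, plus strand), and capitals mark CpG dinucleotides, the sites where mammalian DNA is methylated.
Xylt1 leading region, chr7:117434851-117435150: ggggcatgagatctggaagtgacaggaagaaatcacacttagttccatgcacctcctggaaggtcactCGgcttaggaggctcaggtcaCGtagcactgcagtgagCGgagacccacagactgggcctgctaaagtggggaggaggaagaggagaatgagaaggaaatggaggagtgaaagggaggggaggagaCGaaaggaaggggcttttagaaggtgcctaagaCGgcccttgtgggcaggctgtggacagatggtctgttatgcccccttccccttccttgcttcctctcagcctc
Chst11 leading region, chr10:83022851-83023150: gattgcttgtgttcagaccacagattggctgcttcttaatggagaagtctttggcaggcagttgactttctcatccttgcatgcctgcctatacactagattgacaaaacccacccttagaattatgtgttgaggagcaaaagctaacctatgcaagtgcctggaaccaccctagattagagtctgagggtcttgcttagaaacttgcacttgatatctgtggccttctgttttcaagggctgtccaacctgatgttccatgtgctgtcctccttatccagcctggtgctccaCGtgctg
The Xylt1 window held 5 CpG and the Chst11 window 1 CpG, against a median of 3 in the central 300 bases of regions that did not cover a coding gene start. GC content was 56.0% in the Xylt1 window and 47.3% in the Chst11 window. The windows do not stand for the whole regions. These held 17.0 CpG per kb at Xylt1 and 14.75 at Chst11, both above the median of 10.6 for regions not over a coding gene start. Repeats made up 32.3% of the Xylt1 window and 20.9% of its region, and 0% and 12.3% at Chst11.

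RefSeq promoters (250 bases before to 50 bases after the transcript start, build GRCm38.p6) were matched by symbol for 6 of the 10 genes. The promoters of Chst11, where one leading region lies downstream of the start, and of Xylt2, whose only region covers its start, are printed with every GC box (GGGCGG, or CCGCCC on the other strand) in capitals.
Chst11 promoter, chr10:82985247-82985546, plus strand: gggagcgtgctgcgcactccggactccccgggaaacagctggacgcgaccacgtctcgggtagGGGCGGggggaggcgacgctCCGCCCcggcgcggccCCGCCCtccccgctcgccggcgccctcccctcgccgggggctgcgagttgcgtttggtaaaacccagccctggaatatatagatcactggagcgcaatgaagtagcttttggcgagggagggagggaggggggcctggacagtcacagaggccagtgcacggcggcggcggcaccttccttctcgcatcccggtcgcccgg
Xylt2 promoter, chr11:94677444-94677743, minus strand: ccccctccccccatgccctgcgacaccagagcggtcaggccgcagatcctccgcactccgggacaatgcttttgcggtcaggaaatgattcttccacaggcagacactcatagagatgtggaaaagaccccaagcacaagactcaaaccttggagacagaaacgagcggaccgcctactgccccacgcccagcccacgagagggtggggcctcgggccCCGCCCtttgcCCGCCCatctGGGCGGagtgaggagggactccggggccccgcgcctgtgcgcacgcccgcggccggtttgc
The Chst11 promoter held 34 CpG and the Xylt2 promoter 23, against a median of 7 over all 32851 promoters of the table. That comparison was not limited to promoters with H3ac. Both carried 3 GC boxes. At least 1 GC box was found in 5 of the 6 promoters, all but that of Ext2, and in 35.7% of all promoters. In the central windows of regions, a GC box was found in 5 of the 45 regions of the 10 genes and in 14.1% of all regions. Over whole regions, the 45 regions of the 10 genes had a median GC content of 47.5% against 46.2% for all regions, and 18.0% against 18.9% of bases in repeats. The start regions of the 10 genes had a median of 19.1 CpG per kb, below the 23.7 of all regions over a coding gene start. Their median GC content was higher, at 50.6% against 48.3%.

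Each gene had H3ac over its start. Of the 45 regions, 10 covered a gene start, 22 lay within introns, 10 covered exon and intron, and the remaining 3 covered the start of another coding transcript of Chst3, the end of Ndst1 and sequence downstream of Chsy1. Chst11 had 10 regions, Csgalnact1 9, Xylt1 7, Ext1 6, Ext2 4, Chsy1 3, Chst3 and Ndst1 2 each, and Xylt2 and Chst12 1 each. Region length ran from 1000 bp, the leading region of Xylt1, to 110000 bp over the start of Ext1. H3ac covered between 13.7% (Ext2) and 84.0% (Chst12) of the gene body. The region counted only through the 5 kb extension was the one downstream of Chsy1, with 114 and 65 reads in Young, 53 and 39 reads in Old and 87 and 56 reads in OldAcetate. With 20 kb, 3 more regions would have entered, near Chst12 (27 and 26, 12 and 16, and 35 and 19 reads), Xylt2 (21 and 17, 10 and 11, and 24 and 14 reads) and Ndst1 (1030 and 803, 541 and 607, and 898 and 726 reads), in the same order of groups.

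Levels were set side by side per kb of region. Summed over the regions of a gene and averaged over the 6 libraries, the deposited values (RPM, the reads of a region relative to the library total) ranged from 2.22 RPM per kb at Chst3 to 3.64 RPM per kb at Chst12. Ndst1, which removes acetyl groups from heparan and replaces them with sulfate, followed with 3.31 RPM per kb, and Xylt1 with 3.01. The remaining genes lay between 2.29 (Xylt2) and 2.72 (Ext2) RPM per kb. At the starts themselves, Xylt1 had 4.11 RPM per kb and Csgalnact1 3.92, and Xylt2 had the lowest level with 2.29. The median was 2.99 RPM per kb over the 10 start regions, 2.32 over the other 35, and 2.70 over all regions of the table. Over the whole table it was 3.07 for regions over a coding gene start and 2.50 for other regions overlapping a coding gene body.

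**Figure D1:**
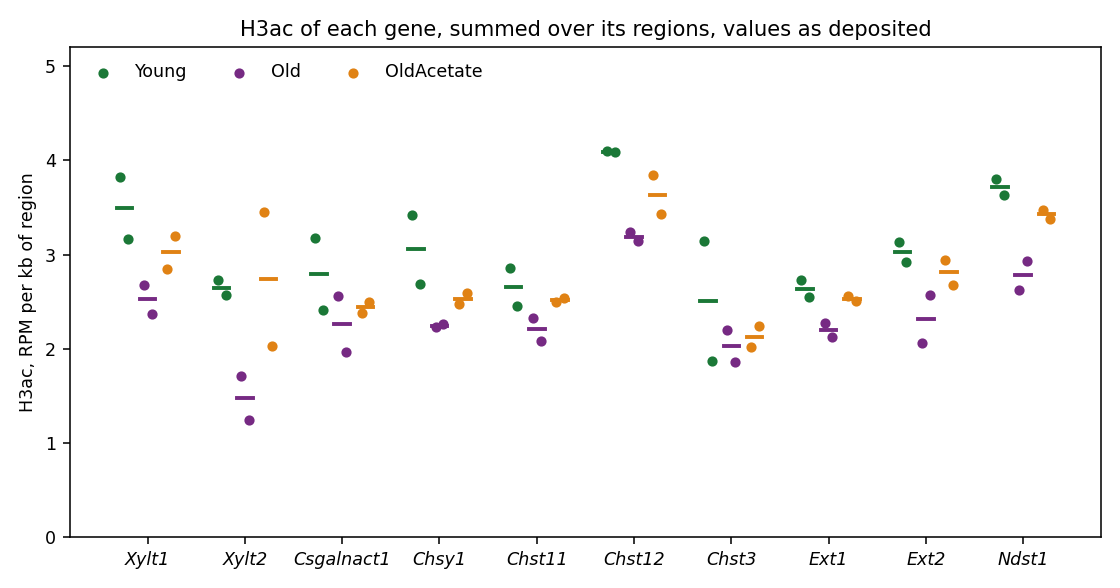
H3ac of the 10 genes in each library. The vertical axis gives RPM summed over the regions of a gene, as deposited, per kb of region, points are libraries and short bars are group means. The mean over the 6 libraries ran from 2.22 RPM per kb at Chst3 to 3.64 at Chst12, and at 8 of the 10 genes, all but Chst3 and Csgalnact1, both Old points lie below both Young points.

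Changes are given on 2 scales, because the libraries differed over the table as a whole. Of all reads of a library, the regions held 57.8% and 64.8% in the Young libraries, 45.9% and 49.9% in the Old libraries and 56.3% and 57.3% in the OldAcetate libraries. The main scale, called scaled, subtracts from each library its median log2 deviation from the region means, which ran from -0.25 in Old replicate 2 to 0.24 in Young replicate 1. It therefore shows a region or gene relative to all others. The second scale keeps the RPM as deposited, and part of any change on it is shared by all regions. Whether this shared difference reflects the cells or the libraries cannot be told apart in these files. Scaled log2 fold changes are given with standard errors (SE) from a limma fit over all regions or all genes, with p adjusted by the Benjamini-Hochberg method over all of them and a threshold of 0.05.

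On the scaled values, 0 of the 10 genes passed the threshold in any comparison, and 0% of all 14135 genes did. An edgeR quasi-likelihood test on the recovered reads, with factors that remove the shared difference, also called 0 of the 10. Values of Xylt1 and Chst11 include their leading regions here, and with these left out limma again called 0 of the 10. For Old against Young, 0 genes of the 10 had an unadjusted p under 0.05, against 5.16% of all genes. For OldAcetate against Old the number was again 0, against 5.94%. For OldAcetate against Young it was 1, Chsy1, against 5.08%. The median scaled log2 change of the 10 genes was -0.02 for Old against Young, -0.08 for OldAcetate against Old and -0.07 for OldAcetate against Young, beside -0.01, 0.00 and 0.00 over all genes. In tests on simulated data, 81.5% of genes changed by 2-fold were recovered at this depth and 37.5% of those changed by 1.5-fold, so smaller differences could be missed.

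The enzymes that start every chain come first. Xylt1 is one of a pair of xylosyltransferases, and its summed H3ac was 251 and 207 RPM in Young, 176 and 155 RPM in Old, and 186 and 209.8 RPM in OldAcetate. Both Old libraries were lowest, and OldAcetate overlapped Young. Relative to all genes, the scaled change was -0.11 ± 0.08 (SE) for Old against Young and -0.02 ± 0.08 for OldAcetate against Old, neither past the threshold (adjusted p = 0.931 and 0.989). These sums include the leading region, and without it the changes were -0.09 and -0.04.

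Xylt2, the other xylosyltransferase, rested on a single region of 3500 bp over its start and on few reads. They numbered 29 and 22 in Young, 13 and 11 reads in Old and 36 and 17 reads in OldAcetate, or 9.54 and 8.99, 6.01 and 4.37, and 12.1 and 7.09 RPM. The Old libraries were again lowest and did not overlap either other group, while the OldAcetate libraries were far apart. The scaled changes of the gene, the largest of the 10 in size, were -0.44 ± 0.32 for Old against Young and 0.52 ± 0.32 for OldAcetate against Old (adjusted p = 0.931 and 0.882). Leaving out 1 library moved the second value between 0.18, without OldAcetate replicate 1, and 0.86, without OldAcetate replicate 2.

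The chondroitin branch opens with Csgalnact1, which adds the first N-acetylgalactosamine. Its summed H3ac was 273 and 208 RPM in Young, 220.0 and 169 RPM in Old, and 205 and 215 RPM in OldAcetate. Young and Old overlapped. The scaled changes were 0.05 ± 0.09, -0.16 ± 0.09 and -0.10 ± 0.09 for Old against Young, OldAcetate against Old and OldAcetate against Young. Chsy1, which polymerises the chondroitin backbone, had 209 and 164 RPM in Young, 136 and 138 RPM in Old, and 151 and 158 RPM in OldAcetate. The groups did not overlap in any comparison on this scale. Its scaled change of -0.18 ± 0.08 for OldAcetate against Young had the lowest unadjusted p of the 10 genes (0.0373), with an adjusted p of 0.973.

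Chst11 and Chst12 place sulfate on one position of N-acetylgalactosamine and Chst3 on another. Chst11 had 269 and 230.4 RPM in Young, 219 and 196 RPM in Old, and 235 and 239 RPM in OldAcetate. Old was below Young, and OldAcetate lay within the range of Young. The scaled changes were 0.09 ± 0.07, -0.08 ± 0.07 and 0.00 ± 0.07 in the order of comparisons above. They include the leading region, and without it they were 0.06, -0.10 and -0.04. Chst12 had 86.2 and 85.8 RPM in Young, 68.0 and 66.0 RPM in Old, and 80.6 and 72.2 RPM in OldAcetate, with no overlap between groups. Its scaled changes were -0.01 ± 0.11, -0.09 ± 0.11 and -0.09 ± 0.11. Chst3 had 86.5 and 51.5 RPM in Young, 60.6 and 51.3 RPM in Old, and 55.4 and 61.7 RPM in OldAcetate. The spread within Young exceeded every difference between its group means, and the scaled changes were 0.09 ± 0.14, -0.21 ± 0.14 and -0.11 ± 0.14.

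Ext1 and Ext2 form the complex that polymerises heparan sulfate. Ext1 had 590.2 and 550.2 RPM in Young, 491 and 459 RPM in Old, and 553 and 541 RPM in OldAcetate, the most precisely measured of the 10, with scaled changes of 0.09 ± 0.05, -0.07 ± 0.05 and 0.02 ± 0.05. The deposited values of Old lay below both other groups. Ext2 had 73.7 and 68.6 RPM in Young, 48.5 and 60.5 RPM in Old, and 69.2 and 63.0 RPM in OldAcetate, and scaled changes of -0.04 ± 0.13, 0.01 ± 0.13 and -0.03 ± 0.13. Ndst1 had 243 and 233 RPM in Young, 168 and 188 RPM in Old, and 222 and 216 RPM in OldAcetate. Old was lowest without overlap at both genes, and the scaled changes of Ndst1 were -0.07 ± 0.08, 0.03 ± 0.08 and -0.04 ± 0.08. One region of Ext2 also overlaps Alx4 and the start region of Ndst1 also overlaps Rps14, so their reads cannot be assigned to 1 gene.

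On the deposited RPM, Old lay below Young without overlap at 8 of the 10 genes (all but Chst3 and Csgalnact1), as did 71.5% of all genes. OldAcetate lay above Old without overlap at 8 of 10, again all but these, against 63.2% of all genes, and below Young at 3 (Chsy1, Chst12 and Ndst1), against 26.9%. By limma without scaling, 8 of the 10 genes were called lower in Old than in Young (all but Chst11 and Chst3), against 33.1% of all genes. The median log2 change was -0.37, near the -0.36 over all genes, so the higher share does not mean a larger change. Regions of the 10 genes were longer than those of the table (median 9500 bp against 5500 bp), and the part of length and reads in the share called was not tested. For OldAcetate against Old, 0 of the 10 were called, against 7.46% of all genes, and the medians were 0.20 and 0.28. For OldAcetate against Young, 0 of the 10 and 0% of all genes were called. In both comparisons with Old, the 10 genes moved on this scale with the share of reads in regions given above, and the part of that share in their change was not tested.

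At the level of single regions, 0 of the 45 passed the threshold on the scaled values, and 0 did in the corresponding edgeR test. The share of all regions called was 0.00819% for Old against Young and 0% for OldAcetate against Old and for OldAcetate against Young. At an unadjusted p under 0.05 there were 5 regions for Old against Young, 3 higher and 2 lower, against 5.54% of all regions. There were 4 for OldAcetate against Old, 2 in each direction, against 6.24%, and 2 for OldAcetate against Young, 1 in each direction, against 5.08%. These counts include the leading regions. Among the 43 regions without the 2 leading ones there were 2 higher and 1 lower for Old against Young. For OldAcetate against Old 1 was higher and 2 lower, and for OldAcetate against Young 0 were higher and 1 lower. The median scaled change of the 45 regions was -0.03, -0.04 and -0.03 in these comparisons, beside 0.00 over all regions in each. The 10 start regions differed from the other 35 in median change by 0.00, 0.09 and 0.08, where the same difference of medians varied between replicates with an SD of 0.04. For OldAcetate against Old the direction was not stable, since the 0.09 became -0.029 without Old replicate 1 and -0.035 without OldAcetate replicate 1. For OldAcetate against Young the 0.08 kept its sign whichever library was left out, but fell to 0.024 without OldAcetate replicate 1. Where groups are said below not to overlap in RPM at a region, the share of all regions without overlap was not taken. On the deposited RPM the median log2 change over all regions was -0.35 for Old against Young and 0.24 for OldAcetate against Old. Such a pattern therefore does not set a region apart.

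**Figure D2:**
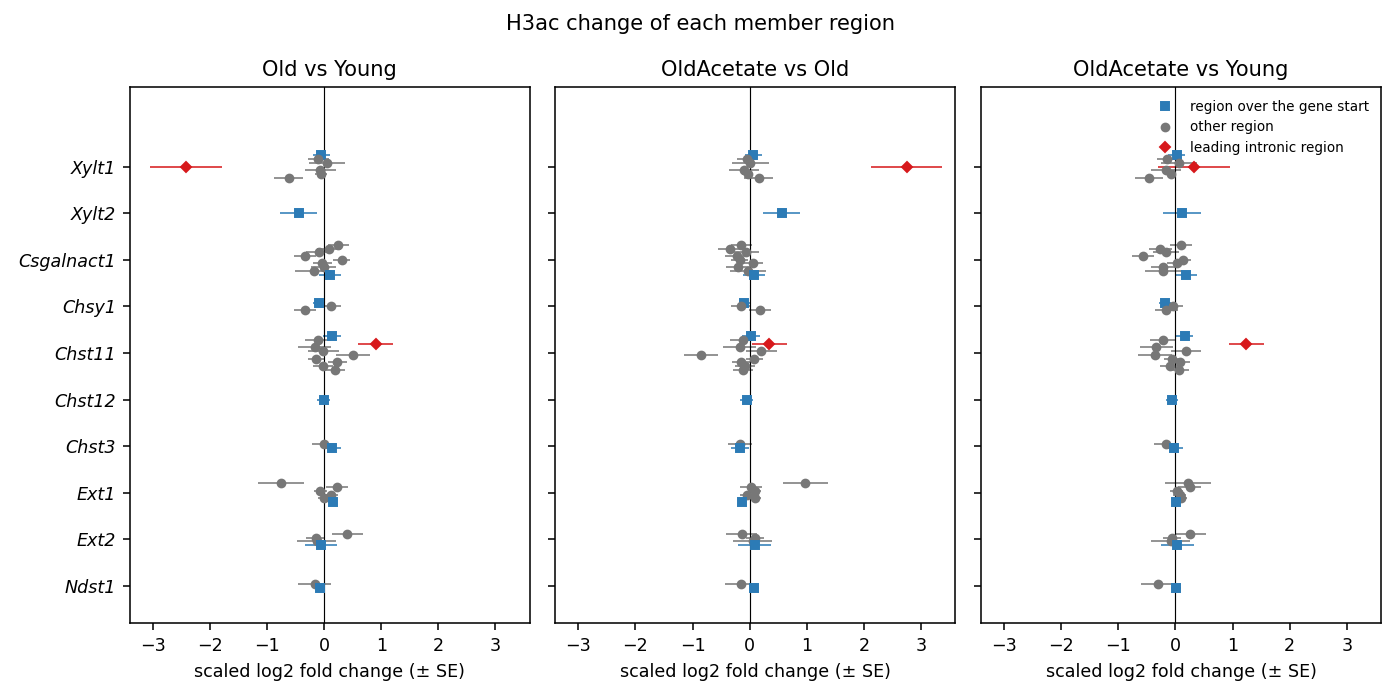
Scaled log2 fold change with its SE for each of the 45 regions, grouped by gene, in the 3 comparisons. Squares are regions over the gene start, diamonds are the leading intronic regions and circles are the others. Most regions sit near 0, and the leading region of Xylt1 reaches 2.75 for OldAcetate against Old while the other 6 regions of the gene lie between -0.10 and 0.16.

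The leading region of Xylt1 spanned chr7:117434501-117435500, within an intron, with its centre 54022 bp from the gene start. It held 9 and 7 reads in Young, 0 and 0 reads in Old and 7 and 12 reads in OldAcetate, or 2.96 and 2.86, 0 and 0, and 2.35 and 5.01 RPM. Old was thus the group without reads, and Young and OldAcetate overlapped. Against a floor of 3 reads over both Old libraries, the pooled level was at least 5.51-fold higher in OldAcetate and at least 4.55-fold higher in Young. Such a floor covers counting error only. The scaled log2 change of 2.75 for OldAcetate against Old had the second lowest p of the table, which is how the region was chosen.

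This region was unusual in form. It was 1000 bp long, as were or shorter 0.516% of all regions, and it touched a neighbouring region on both sides, as did 20 regions or 0.0819%. The region before it (2500 bp) held 27 and 21 reads in Young, 22 and 12 reads in Old and 23 and 22 reads in OldAcetate. The region after it (4500 bp) held 53 and 27, 25 and 23, and 27 and 34 reads. H3ac was thus present in Old on both sides, and in both neighbours the groups overlapped in RPM. When the 3 touching regions were joined into 1 segment of 8000 bp, a step chosen after the data were seen, the reads were 89 and 55 in Young, 47 and 35 reads in Old and 57 and 68 reads in OldAcetate. The scaled log2 differences of the segment were -0.20, 0.17 and -0.02 for the 3 comparisons.

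The other 6 regions of Xylt1 were split in direction in the contrast that chose the leading one. For OldAcetate against Old, 3 were higher and 3 lower, with a median scaled change of -0.01 and a range of -0.10 to 0.16, beside a median of 0.00 over all regions. The sign of this median depended on single libraries, as it was 0.14 without OldAcetate replicate 1 and -0.093 without OldAcetate replicate 2. The start region (chr7:117375501-117385000) held 147 and 95 reads in Young, 77 and 76 reads in Old and 111 and 106 reads in OldAcetate, and changed by 0.07 ± 0.15 (adjusted p = 0.978). The largest region, 31500 bp around 98772 bp from the start, held 358 and 242, 184 and 197, and 278 and 227 reads, and changed by -0.04 ± 0.10. The intronic region of 10000 bp before the touching set held 105 and 77, 54 and 58, and 73 and 74 reads, with a change of -0.04 ± 0.18. In RPM, OldAcetate lay above Old without overlap at the start and at the 31500 bp region and overlapped it at the 10000 bp region.

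The most distal region of Xylt1, chr7:117567001-117573500, had, after the leading one, the lowest p of the 45 for a lower value in Old than in Young. It held 63 and 38 reads in Young, 18 and 24 reads in Old and 36 and 28 reads in OldAcetate, or 20.7 and 15.5, 8.32 and 9.55, and 12.1 and 11.7 RPM. The 3 groups did not overlap in RPM, with Old lowest and OldAcetate between, an order whose share over all regions was not taken. The scaled change was -0.62 ± 0.25 for Old against Young (adjusted p = 0.855 by limma) and -0.46 ± 0.25 for OldAcetate against Young.

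The leading region of Chst11 spanned chr10:83021001-83025000, within an intron, with its centre 37502 bp from the gene start, and had the second lowest p of the table for OldAcetate against Young. It held 17 and 13 reads in Young, 16 and 23 reads in Old and 35 and 32 reads in OldAcetate, or 5.59 and 5.31, 7.40 and 9.15, and 11.8 and 13.3 RPM. The groups did not overlap, Young was lowest and OldAcetate highest. The pooled level in OldAcetate was 2.28 times that in Young and 1.50 times that in Old. The scaled log2 changes were 0.90 for Old against Young, 0.34 for OldAcetate against Old and 1.24 for OldAcetate against Young, so its order of groups was not that of the Xylt1 region.

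Among the other 9 regions of Chst11, 4 were higher and 5 lower in OldAcetate than in Young, with a median of -0.06 and a range of -0.36 to 0.19. The start region (12500 bp) held 138 and 86 reads in Young, 83 and 78 reads in Old and 122 and 100 reads in OldAcetate. Its scaled change for OldAcetate against Young was 0.16 ± 0.15 (adjusted p = 0.984 by limma). The nearest region before the leading one, 9000 bp away, held 61 and 44, 32 and 32, and 41 and 39 reads and changed by -0.22 ± 0.23. The nearest after it, 5000 bp away, held 45 and 23, 18 and 20, and 26 and 20 reads and changed by -0.33 ± 0.29. In both neighbours the direction was opposite to that of the leading region, within about 1 SE of 0.

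Farther along Chst11, the intronic region at chr10:83081501-83085500 had the lowest p of the 45 for a lower value in OldAcetate than in Old. It held 32 and 22 reads in Young, 22 and 29 reads in Old and 26 and 13 reads in OldAcetate, and the OldAcetate libraries lay apart. Its scaled change was -0.85 ± 0.30 for OldAcetate against Old (adjusted p = 0.696 by limma) and 0.50 ± 0.30 for Old against Young. The remaining 5 regions lay 56752 to 196252 bp from the start. In order of distance they changed by 0.19, -0.06, 0.09, -0.10 and 0.07 for OldAcetate against Young, the contrast that chose the leading region. For OldAcetate against Old they changed by -0.15 to 0.20, and 2 of these values were above 0. The most read of them, 17000 bp around 115502 bp from the start, held 152 and 124 reads in Young, 82 and 85 reads in Old and 119 and 120 reads in OldAcetate, and changed by -0.06 ± 0.15 for OldAcetate against Young.

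**Figure D3:**
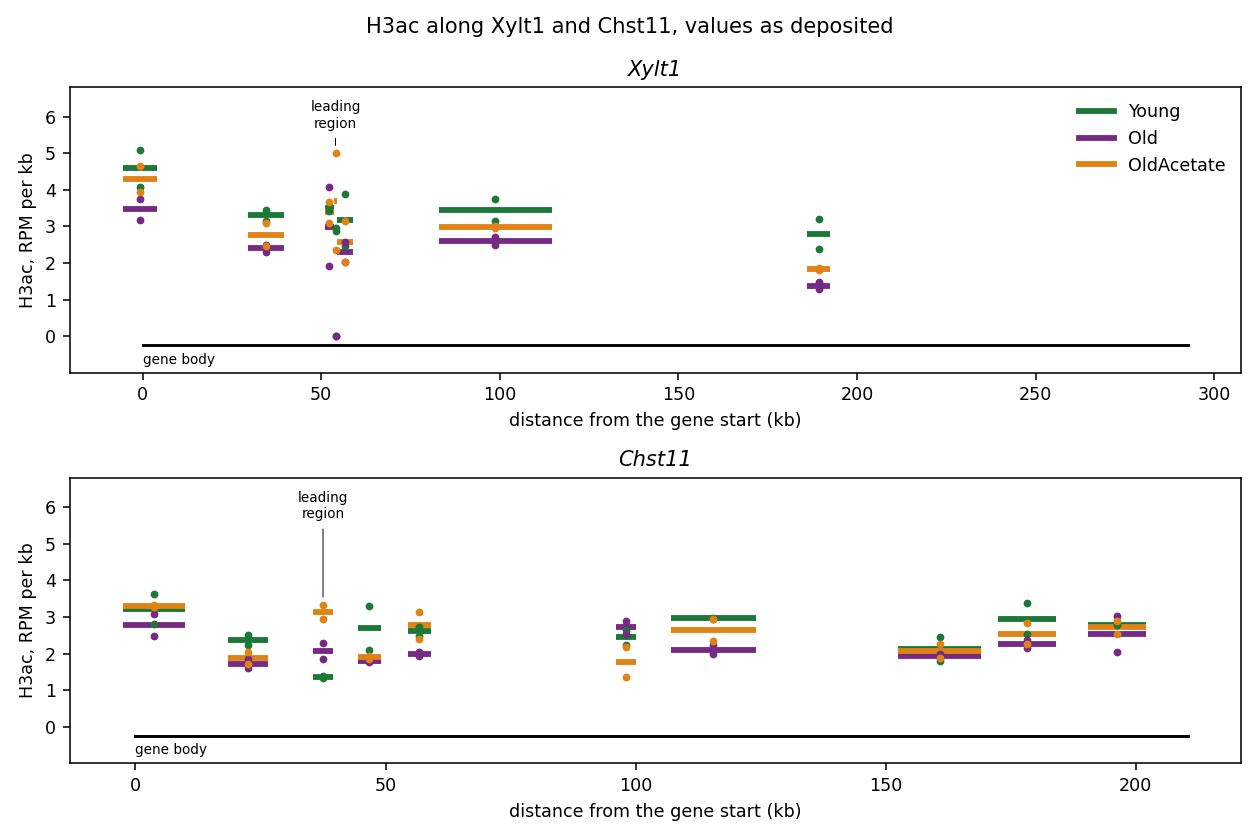
H3ac along Xylt1 and Chst11. The horizontal axis gives the distance from the gene start in kb and the vertical axis RPM per kb as deposited, with bars at group means over each region and points for libraries. At the leading region of Xylt1 both Old libraries are at 0 while its neighbours are not, and at the leading region of Chst11 the Young libraries are lowest.

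In the heparan branch, 3 regions of Ext1 were among those with the lowest p in a direction. The region over its start, 110000 bp and the most read of the 45, held 889 and 666 reads in Young, 564 and 584 reads in Old and 776 and 642 reads in OldAcetate. Its scaled change was 0.15 ± 0.06 for Old against Young and -0.14 ± 0.06 for OldAcetate against Old, with adjusted limma p-values of 0.855 and 0.777. Without scaling the same values were -0.20 and 0.10, so the direction depended on the scale. A short region of Ext1 far inside the gene, chr15:53100501-53102500, held 23 and 14 reads in Young, 6 and 7 reads in Old and 20 and 18 reads in OldAcetate. Old was lowest without overlap, with scaled changes of -0.76 ± 0.40 against Young and 0.97 ± 0.40 for OldAcetate against Old (adjusted p = 0.894 and 0.768). The adjoining region of 10500 bp, 4500 bp away, held 64 and 68, 47 and 57, and 79 and 64 reads, and its change for OldAcetate against Old was 0.02 ± 0.19. That neighbour had the second lowest p for a higher value in OldAcetate than in Young, at 0.25 ± 0.19 (adjusted p = 0.980 by limma).

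In the chondroitin branch, the region chr8:68526501-68536000 of Csgalnact1 had the lowest p for a lower value in OldAcetate than in Young. Its reads were 124 and 72 in Young, 59 and 42 reads in Old and 70 and 47 reads in OldAcetate, with both groups of old cells below Young in RPM. The scaled change was -0.57 ± 0.19 for OldAcetate against Young (adjusted p = 0.964 by limma). Its neighbour of 21000 bp, the most read region of the gene, held 157 and 97, 107 and 98, and 126 and 119 reads and changed by 0.13 ± 0.14. The start region of Csgalnact1 held 87 and 50, 49 and 46, and 80 and 58 reads and changed by 0.19 ± 0.19.

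The other start regions were close to the rest of the table on the scaled values. That of Chsy1 (39000 bp) held 418 and 264 reads in Young, 185 and 238 reads in Old and 285 and 248 reads in OldAcetate, with -0.08 ± 0.10 for Old against Young. That of Ndst1 (58500 bp) held 697 and 538, 335 and 456, and 638 and 490 reads, with -0.07 ± 0.08. Those of Chst12, Chst3 and Ext2 changed by -0.01 ± 0.11, 0.14 ± 0.16 and -0.05 ± 0.28. The most read regions besides the start were the 13500 bp of Chsy1 (0.12 ± 0.18), the 11000 bp at another transcript start of Chst3 (0.00 ± 0.21), the 40000 bp of Ext1 (0.00 ± 0.11), the 10500 bp of Ext2 (-0.15 ± 0.16) and the 5500 bp at the end of Ndst1 (-0.16 ± 0.29), again for Old against Young.

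Without scaling, 8 of the 45 regions were called lower in Old than in Young by limma, against 9.50% of all regions, with a median log2 change of -0.38 beside -0.35. As for the genes, the part of region length and reads in this share was not tested. They were the leading, the 31500 bp and the most distal region of Xylt1, the start and downstream regions of Chsy1, the named region of Csgalnact1, a 26000 bp intronic region of Ext1 and the start region of Ndst1, and for the 7 besides the leading region the adjusted p ran from 0.0143 (Ndst1) to 0.0469 (Ext1). The leading region counts here only as a description, since its reads in Old also entered the contrast by which it was chosen. The Ext1 region held 286 and 202 reads in Young, 133 and 178 reads in Old and 240 and 204 reads in OldAcetate. For OldAcetate against Old, 1 of the 45, the leading region of Xylt1, was called higher, against 0.311% of all regions, and the rule for choosing the genes used that contrast. For OldAcetate against Young 0 of the 45 and 0% of all regions were called.

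Each region of the table carries a code composed of the letters Y, O and AC. The labels do not define them, and they are taken to stand for Young, Old and OldAcetate. Of the 45 regions, 36 carried all 3 (80.0%, against 80.6% of all regions), 6 carried AC+Y and 3 carried Y alone. The 9 regions without O (20.0%, against 16.8%) belonged to Xylt1, Xylt2, Chst11, Chst3, Csgalnact1, Ext1 and Ext2. For Old against Young, 8 of these 9 had a scaled change below 0 with a median of -0.18, and for OldAcetate against Old 6 of 9 were above 0 with a median of 0.16. The counts include both leading regions, and that of Xylt1 was chosen in OldAcetate against Old. They also include the Chst3 region, at -0.001 for Old against Young. The code itself may rest on these values, so the counts are a description. The same counts were not taken over all regions without O, so they do not set these genes apart. The leading region of Chst11 was the exception, being coded AC+Y although both Old libraries (7.40 and 9.15 RPM) lay above both Young libraries (5.59 and 5.31 RPM).

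**Figure D4:**
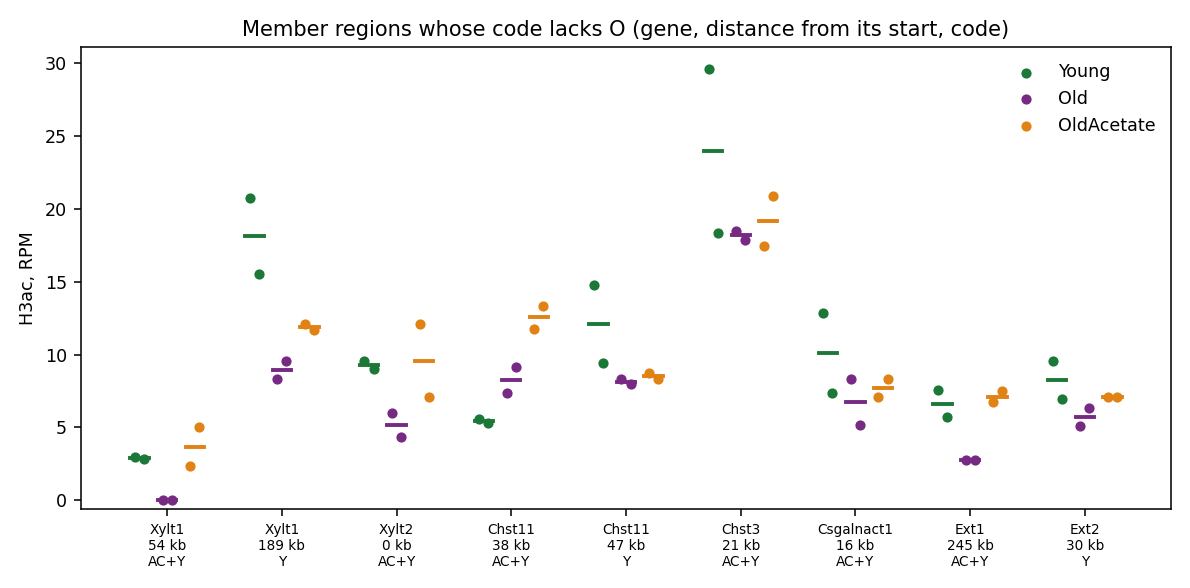
The 9 regions coded without O. The vertical axis gives RPM as deposited, points are libraries, short bars are group means, and the labels give the gene, the distance of the region from its start in kb and the code. The Old mean is lowest at 8 of the 9, at 0 in both libraries of the leading region of Xylt1, and at the leading region of Chst11 the 2 Young libraries (5.59 and 5.31 RPM) are lowest instead. On this scale the median log2 change over all regions of the table was also below 0 for Old against Young (-0.35).

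The remaining genes of the pathway were followed in 6 lists of 82 genes, of which 71 had a region. These were 5 of 5 genes of the linker, 11 of 11 of chondroitin and dermatan synthesis, 10 of 18 of heparan synthesis, 12 of 12 of precursor supply, 18 of 21 core proteins, and 15 of 15 of remodelling and turnover. On the scaled values 0 of the 71 passed the threshold in any comparison, as among the 10. At an unadjusted p under 0.05, 1 was higher and 3 lower in Old than in Young, against 5.16% of all genes. In OldAcetate 2 were higher and 3 lower than in Old (5.94%), and 3 higher and 1 lower than in Young (5.08%). The heparan list had a median of -0.10 for Old against Young with 8 of 10 genes below 0, and 0.14 for OldAcetate against Old with 6 of 10 above 0. In the same 2 comparisons the medians were 0.03 and 0.18 for the linker list, -0.02 and -0.02 for the chondroitin list, 0.00 and 0.01 for precursor supply, -0.06 and 0.03 for core proteins, and -0.02 and 0.05 for remodelling and turnover. Over all 71 genes they were -0.02 and 0.04, beside -0.01 and 0.00 over all genes of the table. Without scaling, 31 of the 71 were called lower in Old than in Young (33.1% of all genes) and 5 higher in OldAcetate than in Old (7.46%), namely Hspg2, Srgn, Glce, Slc35b3 and Arsb.

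Of these 71 genes, Hs6st2, a heparan sulfotransferase, had the lowest p for Old against Young. Its summed H3ac was 55.3 and 48.6 RPM in Young, 28.7 and 32.2 RPM in Old, and 41.7 and 42.5 RPM in OldAcetate. The groups did not overlap, and the scaled change was -0.41 ± 0.15 (adjusted p = 0.931 by limma). Acan, the large chondroitin sulfate proteoglycan of cartilage, had the lowest p for OldAcetate against Old, with 13.2 and 10.6 RPM in Young, 12.9 and 11.1 RPM in Old, and 10.4 and 6.67 RPM in OldAcetate. The OldAcetate libraries were lowest but lay apart, and the scaled change was -0.77 ± 0.27 (adjusted p = 0.794 by limma). Dcn, a small proteoglycan of collagen matrix, had the lowest p for OldAcetate against Young, with 21.7 and 17.2 RPM in Young, 16.6 and 15.5 RPM in Old, and 12.8 and 12.5 RPM in OldAcetate. OldAcetate was below both other groups without overlap, and the scaled change was -0.51 ± 0.22 (adjusted p = 0.973 by limma).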

How the data were processed

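H3ac CUT&RUN was measured in 6 libraries of mouse MSCs, 2 each of Young, Old and OldAcetate. The submitters' processing notes name Bowtie2, Picard and mm10 without versions; further steps, and any use of the yeast DNA added at the stop step, are not given in the sources used here. The deposited table, called RPKM by its name, holds RPM per jointly listed region. Its values did not depend on length, and 100% of them were whole multiples of one step per library (tolerance 0.01), from which reads and library totals (2163351 to 3039481 reads, median 31 to 56 reads per region) were recovered. Fold changes on log2 values understate changes of low regions.

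Regions were annotated with GENCODE M21. limma 3.58.1 (R 4.3.3; eBayes with trend and robust) was fitted on log2(RPM + 0.5) over all 24431 regions, and on RPM summed per gene over 14135 genes, with all 6 libraries in 1 fit of group means. The comparisons share libraries, so their results are not independent. Members, lists and tests were chosen with earlier results of these data known. The rule for named regions took the start region and the most read other region of each gene, all regions of Xylt1 and Chst11 (some given by range), every called region, and per comparison the 2 regions with the lowest p in each direction; from the wider lists, called genes and the gene with the lowest p. Of the 31 wider genes called lower without scaling, only the number is given.

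Differences between replicates 1 and 2 were not correlated between groups (r between -0.04 and 0.01). At this depth counting noise could hide a shared mouse or culture, so whether replicate numbers pair the libraries was not settled. The fit was tested on simulated data (24431 regions, 200 of them changed). It recovered 56.5% of these at 2-fold and 94.5% at 3-fold, with 4 and 6 false calls. The gene fit was tested likewise on 14135 genes. Alternatives were the unscaled values, quantile normalization, pseudocounts of 0.1 and 1, leaving out the lowest 25%, a replicate block, only the compared libraries, eBayes without trend and robust, a threshold of 0.01, extensions of 0 and 20 kb, leaving out each library, and edgeR 4.0.16 quasi-likelihood tests on the recovered reads with RLE factors or with library totals. Joining the touching regions, leaving out the leading regions and the fits of single genes and lists under each alternative were added after seeing the data. Sequences came from GRCm38.p6 and RefSeq, and figures were drawn with matplotlib 3.10.9.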

Additional observations from a re-analysis of the deposited data

How the results depend on the processing

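The counts of called regions and genes among the 10 genes, and of called genes in the wider lists, stayed at 0 under most alternatives, the exceptions being those without scaling. Without scaling, limma called 8 regions and 8 of the 10 genes for Old against Young and 1 region for OldAcetate against Old, and edgeR with library totals called 9 regions and 6 genes for Old against Young. For the 71 wider genes the counts were 31 and 32 for Old against Young and 5 and 4 for OldAcetate against Old. The median change of the 45 regions became -0.38 and -0.41 for Old against Young, 0.19 and 0.20 for OldAcetate against Old and, with edgeR, -0.17 for OldAcetate against Young. That of the other Xylt1 regions became 0.23 and 0.20, and that of the other Chst11 regions -0.17 and -0.17. Csgalnact1 turned from higher to lower in Old than in Young (-0.30 and -0.31), and so did Ext1 (-0.26 without scaling). These shifts follow from the construction, since the scaling removes what all regions share. Removing the lowest 25% of regions gave 0.070 for the other Chst11 regions, and 0.065 for the start regions minus the others for Old against Young. The scaling preceded this removal, so single fold changes stayed as they were and only the regions entering each median changed.

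Leaving out each library in turn left all counts at 0. The median of the 45 regions ran from -0.08 to 0.01, -0.06 to 0.03 and -0.05 to 0.01 in the 3 comparisons, that of the other Xylt1 regions from -0.093 to 0.14, and that of the other Chst11 regions from -0.06 to -0.01. Start regions minus the others ran from -0.014 to 0.085, -0.035 to 0.090 and 0.024 to 0.10. Leaving out OldAcetate replicate 1 gave the 0.14, the -0.035 and the 0.024, and leaving out OldAcetate replicate 2 the -0.093. Leaving out Old replicate 1 gave the 0.085 and leaving out Old replicate 2 the -0.014. Among the 30 single-gene changes, 13 changed sign without scaling and up to 7 when 1 library was left out, all without a call except those just given. Of the 135 single-region changes, 49 and up to 24 did, none with a scaled call. In these fits the remaining library of a group was assumed to vary like the others.

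With the replicate number as a block, 0 regions and 0 genes of the 10 were called and no value changed sign. At 31 to 56 reads per median region, a 1.5-fold change in a single region was recovered in 9.5% of simulated cases, so such differences would mostly not be detectable at this depth.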
